A study of Mus musculus with 6 samples.

Results

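The genes described here are 10 markers of radial glia and neural stem cells (Nes, Fabp7, Slc1a3, Sox2, Pax6, Vcam1, Tnc, Ptprz1, Hopx and Cd24a), taken by name from the 19938 genes measured on whole-transcript arrays of the mouse ependymal layer. All 10 were measured, each by 1 probe set that matched no other gene. Laser capture took the EGFP-positive ependymal layer from brains with the FoxJ1-EGFP reporter, which every group therefore carried. The tissue came from wildtype and FoxJ1 null mice at postnatal days 1, 7 and 14, with 1 array for each genotype and age (3 arrays per genotype, 2 per age). The labels do not give the background strain, the promoter fragment behind the reporter or whether a capture pooled animals. No genotype and age has a replicate array. The p-values therefore rest on what the model leaves unexplained over these arrays, combined with a variance estimated from all genes. Values are log2 levels after robust multi-array averaging (RMA), and each is a level of 1 gene followed across arrays, not to be ranked against another gene. The number of arrays limits the precision.

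Radial glia are the neural progenitors that span the embryonic ventricular wall. They give rise to the ependymal cells that come to line the ventricle and to the astrocyte-like stem cells that stay behind them in the subventricular zone. Foxj1 encodes the transcription factor that switches on genes of motile cilia in the ependymal descendants. The 10 genes cover the intermediate filament of progenitors (Nes), their matrix (Tnc), surface proteins (Cd24a, Vcam1, Ptprz1), transcription regulators (Sox2, Pax6, Hopx), a glutamate transporter (Slc1a3) and a fatty acid carrier (Fabp7). Several are not confined to stem cells: Cd24a also marks ependymal cells and migrating neuroblasts, Vcam1 is made by activated endothelium, Slc1a3 and Hopx are kept by astrocytes, and Ptprz1 and Tnc are made by oligodendrocyte precursors.

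The title of the series names male mice, but the X-inactivation transcript Xist was abundant on the arrays of wildtype day 1 (12.40) and null day 7 (12.35), while the remaining 4 read 5.37 to 5.83. The Y-linked gene Eif2s3y gave the mirror image, 4.53 and 4.61 on that pair and 10.33 to 10.72 elsewhere. Every fit uses these 2 arrays, so the genotype and day 14 minus day 1 results are also given from the 4 arrays with low Xist, in a fit that needs age as a straight line and has 1 residual degree of freedom. The slope comparison cannot be fitted without them. Foxj1 itself read 7.24 to 7.72 on the wildtype and 6.89 to 6.95 on the null arrays (limma difference -0.63, SE 0.12, adjusted p = 0.0573, and 0.468 from the 4 low-Xist arrays). The labels do not say whether its probe set lies in the deleted sequence. All 16 ependymal genes had negative differences between the genotypes and 11 passed at an adjusted p under 0.05, against 0.667% of all genes lower (9 on the 4 low-Xist arrays), while the mean log2 level of the list lay between 8.25 and 8.36 in wildtype tissue at all 3 ages.

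Promoter sequences are shown for the members on which the results turn, because Nes and Tnc fell with age, Hopx alone had higher values on both day 14 arrays than on both day 1 arrays, and Fabp7 had the largest difference of the 10 between the genotypes. They are the 250 bases before the annotated start, in the direction of transcription, from RefSeq on GRCm38.p6. RefSeq held windows for 8 of the 10 genes, and none for Vcam1 or for Cd24a, which also fell with age. The windows are chr3:87970843-87971092 on the plus strand for Nes, chr4:64047016-64047265 on the minus strand for the upstream of 2 Tnc starts, chr10:57784673-57784922 on the plus strand for Fabp7 and chr5:77115124-77115373 on the minus strand for the upstream of 2 Hopx starts. Capitals mark TGGGAA, the core read by the Notch effector RBPJ, or GTTGCC, part of the motif of RFX factors, on either strand; the Nes window holds neither.
Nes: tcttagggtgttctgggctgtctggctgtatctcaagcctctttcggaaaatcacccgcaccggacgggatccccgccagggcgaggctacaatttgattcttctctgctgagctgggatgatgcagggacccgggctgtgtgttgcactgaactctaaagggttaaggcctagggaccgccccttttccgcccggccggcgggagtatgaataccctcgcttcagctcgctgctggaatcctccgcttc
Tnc: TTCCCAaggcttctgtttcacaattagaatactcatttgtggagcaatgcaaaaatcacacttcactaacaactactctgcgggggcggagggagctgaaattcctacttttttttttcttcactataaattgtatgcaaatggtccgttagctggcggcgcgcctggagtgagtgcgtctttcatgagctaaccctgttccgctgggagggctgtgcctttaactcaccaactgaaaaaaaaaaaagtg
Fabp7: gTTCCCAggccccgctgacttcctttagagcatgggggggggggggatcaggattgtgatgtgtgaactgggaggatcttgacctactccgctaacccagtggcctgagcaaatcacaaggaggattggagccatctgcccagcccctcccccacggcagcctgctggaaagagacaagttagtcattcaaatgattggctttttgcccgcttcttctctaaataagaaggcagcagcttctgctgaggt
Hopx: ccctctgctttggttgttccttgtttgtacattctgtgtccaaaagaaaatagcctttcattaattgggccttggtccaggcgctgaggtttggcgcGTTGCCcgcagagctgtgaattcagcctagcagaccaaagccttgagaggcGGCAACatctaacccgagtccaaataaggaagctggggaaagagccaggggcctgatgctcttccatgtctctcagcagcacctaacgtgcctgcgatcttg

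The windows were searched on both strands for 4 sets of letters, none of which overlapped another where they were found. TGGGAA occurred in windows of 2 of the 8 genes, Fabp7 and Tnc, and in 21.6% of all 32851 promoter windows. In Fabp7 it lay at -249 to -244 and in the Tnc window shown at -250 to -245, both on the opposite strand, where -1 is the last base before the start. GTTGCC was found for 2 genes, Pax6 and Hopx, against 10.4% of all windows, and the Hopx window shown held it at -153 to -148 and, on the opposite strand, at -102 to -97. ACAAAG, a SOX core, occurred in Sox2 and Pax6 windows (16.5% of all), and the forkhead core TGTTTAC in none of the 8 (3.17% of all). The downstream windows held TGGGAA at -81 to -76 (Tnc) and GTTGCC at -114 to -109 (Hopx). Pax6, Tnc and Hopx had 2 windows each, so counts of genes and shares of single windows are not like measures. These are matches of letters only.

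Between day 1 and day 14, 3 of the 10 genes fell, none rose and 7 did not pass. Tnc was 4.05-fold lower at day 14, Cd24a 2.75-fold and Nes 2.57-fold. Over all genes 13.8% passed this comparison, 6.29% lower and 7.5% higher (limma on genotype and age over all 6 arrays, Benjamini-Hochberg adjusted p under 0.05). The median difference over the 10 genes was -0.30 on the log2 scale, against -0.01 over all genes. Because the tissue was captured in bulk, fewer cells of a type and less RNA per cell cannot be told apart.

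**Figure D1:**
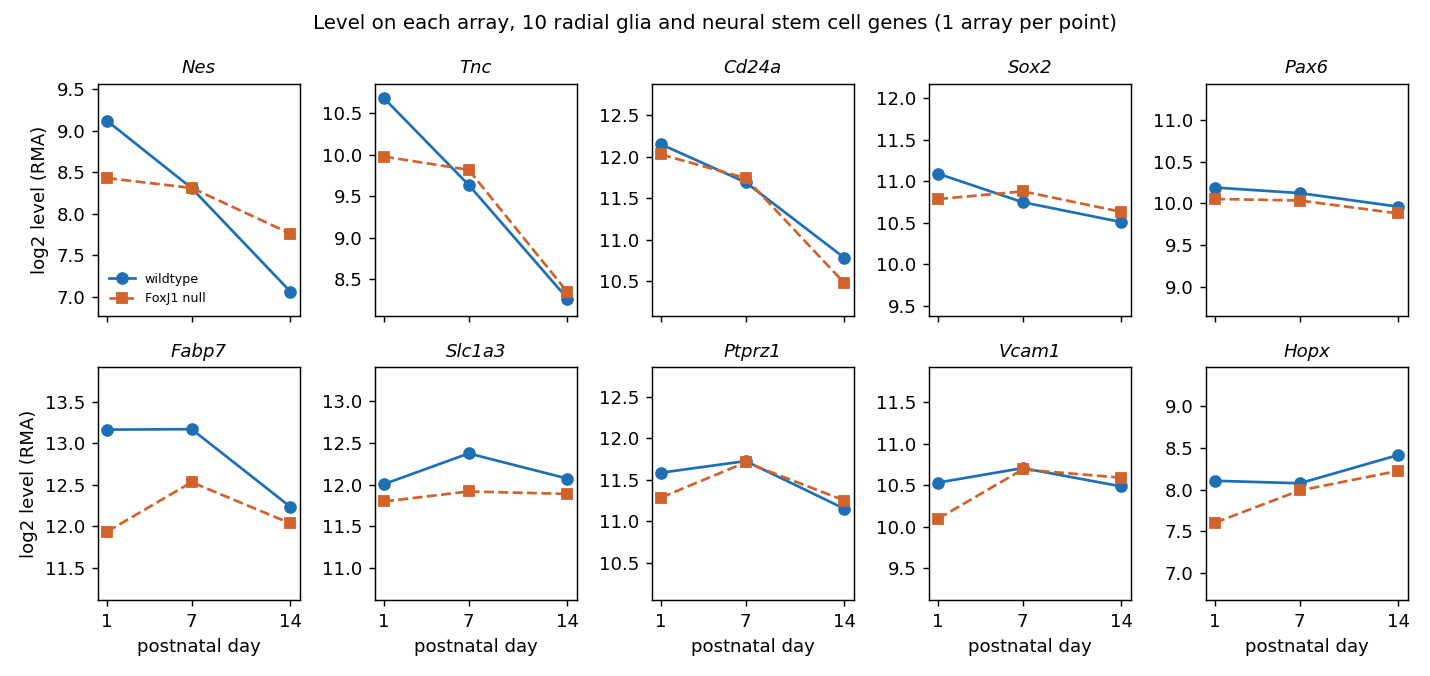
Log2 level (RMA, vertical axis) of each of the 10 genes on the 6 arrays against postnatal day (horizontal axis), with wildtype as blue circles and FoxJ1 null as orange squares, 1 array per point. Every panel spans the same number of log2 units; Tnc drops from 10.68 to 8.27 in wildtype tissue, Pax6 stays between 9.88 and 10.19 on all arrays, and Fabp7 has its null point under its wildtype point on every day.

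Tnc encodes tenascin-C, a glycoprotein of the matrix around progenitors. Wildtype tissue read 10.68, 9.64 and 8.27 at days 1, 7 and 14, and null tissue 9.98, 9.82 and 8.35. Both day 14 arrays lay below all 4 earlier ones, and each step was downward in both genotypes, as it also was for Nes, Pax6 and Cd24a (4 members against 9.37% of all genes). The day 14 minus day 1 difference was -2.02 (SE 0.20, 95% interval -2.46 to -1.58, adjusted p = 0.000321), the fifth lowest of all 19938 genes. The 4 arrays with low Xist gave -1.83 (adjusted p = 0.00477).

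Cd24a encodes a small, heavily glycosylated protein held on the cell surface by a lipid anchor. It read 12.15, 11.69 and 10.78 in wildtype and 12.03, 11.74 and 10.48 in null tissue. The genotypes ran close together, with the change over the whole interval at -1.37 in wildtype and -1.55 in null. The mean change was -1.46 (SE 0.13, 95% interval -1.76 to -1.16, adjusted p = 0.000233), and -1.58 without the 2 high-Xist arrays (adjusted p = 0.00337).

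Nes encodes nestin, the intermediate filament protein by which neural progenitors are commonly recognised. Levels were 9.12, 8.31 and 7.06 in wildtype and 8.43, 8.31 and 7.76 in null tissue. The lines met at day 7 and stood on opposite sides of each other at days 1 and 14. The mean change of -1.36 (SE 0.25, 95% interval -1.93 to -0.79, adjusted p = 0.00774) joined a wildtype change of -2.05 with a null change of -0.67. Without the 2 high-Xist arrays the change was -1.04 and was not called (adjusted p = 0.0707), and leaving out single arrays moved it between -0.84 and -1.88 with adjusted p from 1.86e-06 to 0.0139.

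Among the transcription regulators, Sox2, a maintenance factor of neural progenitors, read 11.09, 10.75 and 10.51 in wildtype and 10.79, 10.88 and 10.63 in null tissue. Both day 14 arrays lay below both day 1 arrays, but the difference of -0.37 (95% interval -0.69 to -0.04) did not pass (adjusted p = 0.133). It was called when the null day 1 array was left out (-0.58, adjusted p = 0.0458), and was -0.15 (adjusted p = 0.635) without the wildtype day 1 array. Pax6, a homeodomain and paired-domain factor of progenitors and of some olfactory bulb interneuron precursors, had the narrowest range of the 10, from 9.88 to 10.19. Its difference was -0.20 (95% interval -0.47 to 0.07, adjusted p = 0.336). On the 4 low-Xist arrays Sox2 was at -0.22 and Pax6 at -0.20, neither called.

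Hopx encodes a short homeodomain protein that does not bind DNA itself. Its level was 8.11, 8.08 and 8.42 in wildtype and 7.60, 7.99 and 8.23 in null tissue, so that both day 14 arrays lay above both day 1 arrays, as they did for 25.5% of all genes. It was the single member with that order, while 6 members (Nes, Sox2, Pax6, Tnc, Ptprz1 and Cd24a) had the opposite one, against 29.4% of all genes. The Hopx difference of 0.47 (SE 0.14, 95% interval 0.15 to 0.78) missed the threshold at adjusted p = 0.0546. Without the 2 high-Xist arrays it was 0.63 and was called (adjusted p = 0.0453), and it was also called without the wildtype day 1 array (0.65, adjusted p = 0.0193), without either day 7 array and under 3 other settings, so 7 of 16 alternatives called it.

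**Figure D2:**
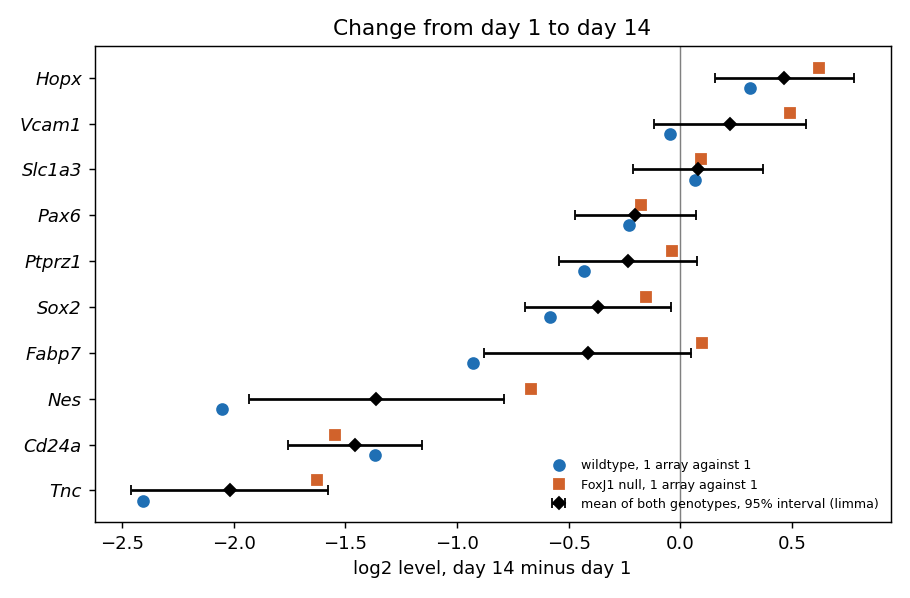
Change in log2 level from day 1 to day 14 (horizontal axis) for each gene (vertical axis, sorted), with the change within wildtype (blue circles) and within FoxJ1 null (orange squares), each from 1 array against 1, and the limma mean of both with its 95% interval (black diamonds). Tnc, Cd24a and Nes lie below 0 with both genotypes, as do Sox2, Pax6 and Ptprz1, whose mean differences did not pass. The Nes points are the most spread, at -2.05 and -0.67.

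Fabp7 encodes the brain fatty acid binding protein of radial glia. The day 1, 7 and 14 arrays read 13.16, 13.17 and 12.23 in wildtype and 11.93, 12.53 and 12.03 in null tissue. The wildtype change was -0.93 and the null change 0.10, which gave a mean of -0.41 (95% interval -0.88 to 0.05, adjusted p = 0.236). It was called without the null day 1 array (-0.82, adjusted p = 0.0118) and without the null day 14 array (-0.78, adjusted p = 0.0260). It was near 0 without the wildtype day 1 array (-0.01, adjusted p = 0.981) and without the wildtype day 14 array (-0.05, adjusted p = 0.958). After a further quantile normalization the mean was -0.16, and on the 4 low-Xist arrays it was -0.31 (adjusted p = 0.624).

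Slc1a3 encodes the glutamate transporter GLAST, present in radial glia and retained in astrocytes. Its level was 12.01, 12.37 and 12.07 in wildtype and 11.80, 11.92 and 11.89 in null tissue, with a day 14 minus day 1 difference of 0.08 (95% interval -0.21 to 0.37, adjusted p = 0.775). On the 4 low-Xist arrays the difference was -0.06 (adjusted p = 0.896). Slc1a2, the related transporter of maturing astrocytes, rose 2.64-fold over the same interval (adjusted p = 0.000231).

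Ptprz1 is a receptor tyrosine phosphatase that binds pleiotrophin and tenascins, and Vcam1 an adhesion molecule that stem cells carry on their ventricular endfeet. Both read highest at day 7 in both genotypes, as did Slc1a3 and Fabp7 (wildtype Fabp7 by only 0.006 over day 1). The share of all genes with that order was not computed. Ptprz1 read 11.58, 11.72 and 11.15 in wildtype and 11.29, 11.71 and 11.25 in null tissue. Vcam1 read 10.53, 10.71 and 10.49 and 10.10, 10.69 and 10.59 in the same order. Neither day 14 minus day 1 difference passed (Ptprz1 -0.23, adjusted p = 0.326; Vcam1 0.22, adjusted p = 0.406), and on the 4 low-Xist arrays they were -0.27 and 0.29, neither called. The null day 1 array was the lowest of the 6 for Vcam1 as well as for Hopx, Slc1a3 and Fabp7. How many of all genes were lowest on that array was not counted, so this order cannot be read as particular to the members.

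Tnc and Cd24a also passed over the second week taken alone. From day 7 to day 14 Tnc dropped by 1.42 (SE 0.20, adjusted p = 0.00568) and Cd24a by 1.09 (SE 0.13, adjusted p = 0.00371), 2 of 10 members against 4.21% of all genes called, 1.87% lower and 2.34% higher. From day 1 to day 7 their differences were -0.60 and -0.37 and no member passed while 0.0602% of all genes did (0.0552% higher, 0.00502% lower). At an unadjusted p under 0.05 there were 3 members (Tnc, Cd24a and Vcam1) and 10.6% of all genes. Over that first interval Tnc was called without the null day 1 array (-1.02), and was -0.18 (adjusted p = 0.627) without the wildtype day 1 array and -0.35 without the wildtype day 7 array. The later interval shares its day 7 arrays with the earlier one, so they are given side by side only. Nes (-0.90, adjusted p = 0.0908), Fabp7 (-0.72, adjusted p = 0.0953) and Ptprz1 (-0.52, adjusted p = 0.0732) missed the threshold between days 7 and 14, and all 3 were called there once genes under the median level were dropped, or without either day 1 array. Without the wildtype day 14 array Nes was -0.38 (adjusted p = 0.550), Fabp7 -0.35 (adjusted p = 0.591) and Ptprz1 -0.39 (adjusted p = 0.472). On the 4 low-Xist arrays the straight line in age makes each interval the same test, so they give no separate value for either week.

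A further list of 42 radial glia and stem cell genes, of which 41 were measured, split in direction with age. From day 1 to day 14, 15 fell, 8 rose and 18 did not pass, with a median of -0.20. By the naming rule the largest passing changes were those of Gfap, the astrocyte intermediate filament (2.26, adjusted p = 0.00280), Fam107a (1.63, adjusted p = 0.00137), the secreted thrombospondin Thbs4 (1.62, adjusted p = 0.000198) and the cortical progenitor factor Emx2 (-0.98, adjusted p = 0.0102). Gfap read 8.48, 9.24 and 9.75 in wildtype and 7.77, 9.55 and 11.02 in null tissue, so it rose where Nes fell. Fabp5, the relative of Fabp7, fell by 0.66 (adjusted p = 0.00971) and between days 7 and 14 by 0.67 (adjusted p = 0.0221), and was not called on the 4 low-Xist arrays (-0.73, adjusted p = 0.0733). Its levels were 10.91, 10.89 and 10.11 in wildtype and 10.72, 10.77 and 10.21 in null tissue.

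Of 24 ligands, receptors, paralogues and co-factors of the members, 6 fell, 5 rose and 13 did not pass over the same interval. Tbr1, a cortical neuron factor downstream of Pax6, fell by 2.03 (SE 0.16, adjusted p = 0.000148), and Pou3f2, a POU factor that pairs with Sox2, fell by 1.01 (SE 0.12, adjusted p = 0.000855). Gfap and Slc1a2, already described, were the other largest. On the 4 low-Xist arrays 7 of the 41 fell and 6 rose, and of the 24 partners 5 fell and 3 rose, with Gfap, Fam107a, Thbs4, Emx2, Tbr1, Slc1a2 and Pou3f2 still called in the same direction.

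Markers of other cell types moved over the same days, and their part in the results for the 10 genes was not tested. All 18 measured proliferation genes fell (median -0.92), including Top2a at -1.59 and the cell cycle antigen gene Mki67 at -1.58, and the list's mean level went from 9.09 to 7.91 in wildtype and from 8.70 to 7.91 in null tissue. Of 16 neuroblast genes 9 fell and 1 rose, with Sox11 at -1.89, and the mean went from 11.21 to 10.76 in wildtype and from 11.22 to 10.56 in null tissue. Astrocyte genes rose (13 of 15, 2 fell), led by Ntsr2 at 2.62 and S100b at 2.43. All 7 myelin genes rose, with a median of 3.20, and their mean level reached 11.01 in wildtype and 10.53 in null tissue from 7.45 and 7.44. Oligodendrocyte precursor genes rose in 4 of 8, microglia genes in 6 of 11 and endothelial genes in 1 of 10, and of the ependymal genes 2 of 16 (Tm4sf1 and Pltp) rose. None of 9 meningeal genes passed, and 1 of 10 choroid plexus genes, Aqp1, fell. The deposited values carry no detection call, so no marker can be called absent. With the low-Xist arrays alone 13 of 18 proliferation genes and 8 of 16 neuroblast genes fell, 11 of 15 astrocyte genes and all 7 myelin genes rose, and 3 of 10 endothelial and 3 of 10 choroid plexus genes rose.

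**Figure D3:**
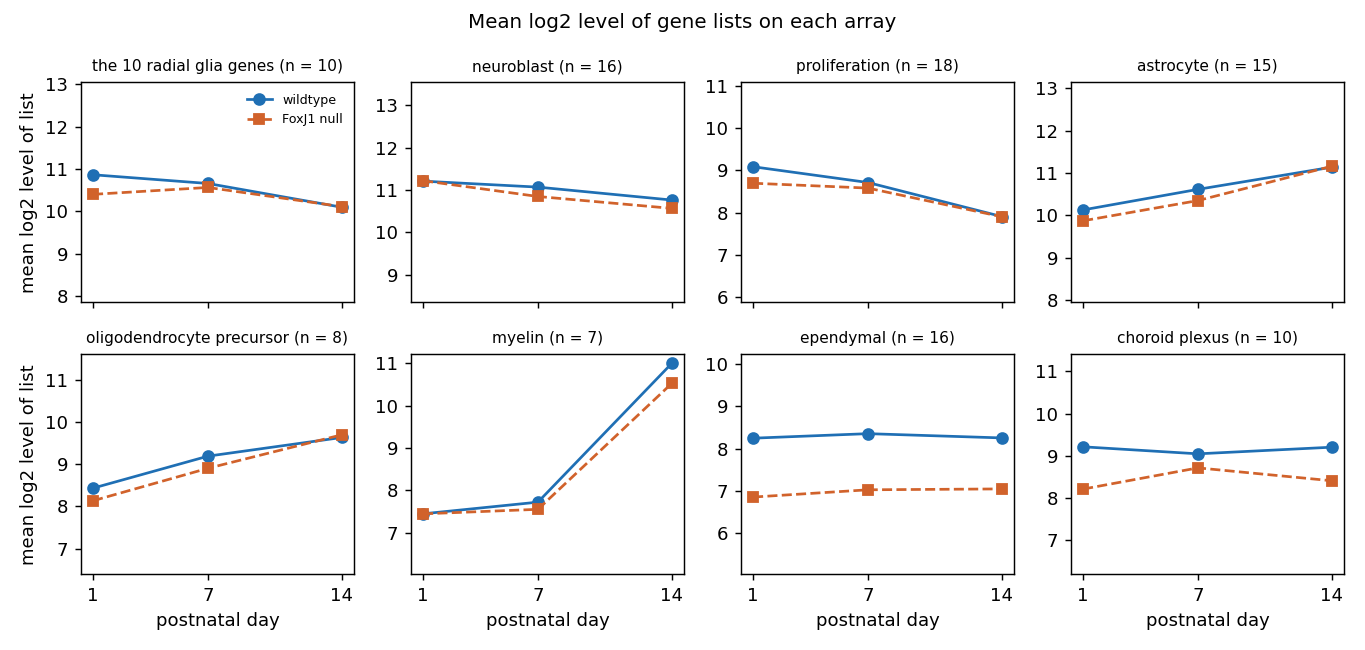
Mean log2 level (vertical axis) over the genes of each list on each array against postnatal day (horizontal axis), wildtype as blue circles and FoxJ1 null as orange squares; members are left out of the other lists, and every panel spans the same number of log2 units. The means of the proliferation and neuroblast lists are lower at day 14 than at day 1 in both genotypes and those of the astrocyte and myelin lists higher; the mean of the 10 genes goes from 10.86 to 10.09 in wildtype but from 10.40 through 10.56 to 10.11 in null tissue, and the ependymal and choroid plexus lists are lower in the null arrays.

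Between the genotypes none of the 10 genes passed the limma test. Across all genes 0.672% did, 0.667% lower and 0.00502% higher in the null. At an unadjusted p under 0.05 there were 3 members, Fabp7, Slc1a3 and Hopx, all lower in the null, and 5.92% of all genes. The median difference of the 10 was -0.12 (null minus wildtype), against -0.01 over all genes. Of their mean differences 9 of 10 were negative, against 54.8% of all genes, 18 of 18 proliferation genes and 9 of 10 endothelial genes. The lean was not shared by the 41 further radial glia and stem cell genes, of which 19 were negative (46.3%), nor by microglia genes (1 of 11). Among the low-Xist arrays none of the 10 members was called, 8 of 10 were negative and their median was -0.20. In that fit 9943 of 19938 genes were negative, with a median of 0.001. Of the 41 further radial glia and stem cell genes 14 were negative there, with a median of 0.03.

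Fabp7 had the largest difference. Null minus wildtype was -1.23, -0.64 and -0.20 at days 1, 7 and 14, with a mean of -0.69 ± 0.52 (SD, n = 3 pairs of arrays), or 1.61-fold (95% interval -1.07 to -0.31, unadjusted p = 0.00243, adjusted p = 0.205). The gap was widest at day 1 and narrowest at day 14, where the wildtype array read 12.23. The pairs of days 1 and 7 are unlike in Xist, in opposite directions (null minus wildtype -6.75 and 6.98, against 0.14 at day 14). The part of that mismatch in the Fabp7 values was not tested. When either day 14 array was left out, which leaves the pairs of days 1 and 7, the difference was -0.93 and was called (adjusted p = 0.00129). Under a further quantile normalization it was -0.47 (adjusted p = 0.958), and without the 2 high-Xist arrays -0.79 (adjusted p = 0.687).

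For Slc1a3 the differences were -0.21, -0.46 and -0.18 at days 1, 7 and 14 (mean -0.28 ± 0.15 SD, adjusted p = 0.719), and the 4 low-Xist arrays gave -0.39 (adjusted p = 0.821). It was the single member whose 3 null arrays all lay below all 3 wildtype arrays, an order seen in 4.39% of all genes. Hopx (mean -0.26 ± 0.22, adjusted p = 0.835) and Pax6 (mean -0.10 ± 0.03, adjusted p = 1.00) were likewise lower in null tissue on every day, which with Fabp7 makes 4 members against 15.9% of all genes. On the 4 low-Xist arrays Hopx was at -0.19 and Pax6 at -0.12, neither called. None of the 10 was higher in the null at all 3 ages (7.9% of all genes).

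**Figure D4:**
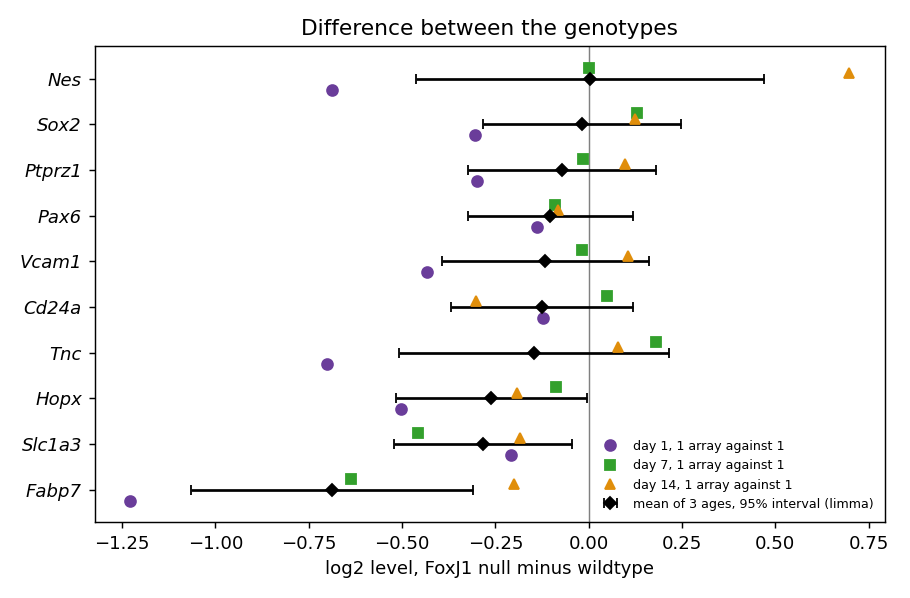
Log2 level in FoxJ1 null minus wildtype (horizontal axis) for each gene (vertical axis, sorted), at day 1 (purple circles), day 7 (green squares) and day 14 (orange triangles), each from 1 array against 1, with the limma mean and its 95% interval (black diamonds). All day 1 points lie below 0, from -1.23 for Fabp7 to -0.12 for Cd24a, and the Nes points run from -0.69 to 0.70.

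The remaining members had differences of opposite sign at different ages. Nes was at -0.69 on day 1, 0.00 on day 7 and 0.70 on day 14, a mean of 0.00 ± 0.69. Tnc went from -0.70 to 0.18 and 0.08 (mean -0.15 ± 0.48), Vcam1 from -0.43 to -0.02 and 0.10 (mean -0.12 ± 0.28), Sox2 from -0.31 to 0.13 and 0.12 (mean -0.02 ± 0.25) and Ptprz1 from -0.30 to -0.02 and 0.10 (mean -0.07 ± 0.20). Cd24a read -0.12, 0.05 and -0.30 (mean -0.12 ± 0.18). The 95% intervals of these means reached at most 0.51 below 0 (Tnc) and 0.47 above it (Nes), so differences of that size are not excluded by the fit. Adjusted p was 1.00 for each of these 6.

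With 1 array against 1, a single age allows no test. At day 1 all 10 members were lower in the null array (median -0.37), while 44.5% of all genes were below 0 there and the median over all genes was 0.03. Fabp7 alone was past 2-fold lower at that age, as were 0.602% of all genes. At day 7, 6 of 10 were lower (median -0.02, 63.4% of all genes) and at day 14, 5 of 10 (median -0.00, 55.4% of all genes). The day 1 comparison sets a wildtype array with high Xist against a null array with low Xist, so at that age the 2 differences between the arrays cannot be told apart. The proliferation list was also lower in the null array at day 1 (mean level 8.70 against 9.09), as were the choroid plexus list (8.22 against 9.21), endothelial genes (8.18 against 8.60), meningeal genes (8.94 against 9.40), astrocyte genes (9.87 against 10.13) and, with the widest gap, ependymal genes (6.86 against 8.25). Neuroblast genes read 11.22 against 11.21, the 41 further radial glia and stem cell genes 9.46 against 9.49 and the partners 9.69 against 9.71. Their part in the day 1 values was not tested.

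Whether the change with age differed between the genotypes was tested as a difference in slopes. No gene passed, 0% of 19938, and at an unadjusted p under 0.05 there were 596 genes (2.99%) and 1 member, Nes. Expressed over the interval from day 1 to day 14, the Nes change was less negative in the null by 1.38 (95% interval 0.73 to 2.04, unadjusted p = 0.000916, adjusted p = 1.00). Fabp7 followed with 1.02 (95% interval -0.00 to 2.05) and Tnc with 0.75 (95% interval -0.17 to 1.68), and 9 of 10 members had a positive slope difference, the exception being Cd24a at -0.19, against 42.7% of all genes. Other lists leaned the same way: 0 of 10 endothelial, 0 of 9 meningeal, 0 of 11 microglia and 0 of 8 oligodendrocyte precursor genes had a negative slope difference. So did 2 of 18 proliferation genes and 11 of the 41 further radial glia and stem cell genes. By contrast 14 of 16 neuroblast and 7 of 7 myelin genes were negative. The signs of the members rest on single arrays: 4 of 10 were positive without the null day 1 array and 6 of 10 without the wildtype day 14 array. Over up to 16 alternatives none was called, and Nes ranged from 1.04 to 1.80, Fabp7 from 0.03 to 2.24 and Tnc from -0.32 to 2.07. The slopes rest on the same day 1 arrays as those differences.

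Of the 41 further radial glia and stem cell genes and of the 24 partners, none passed between the genotypes, and their medians were 0.01 and -0.02. None of 15 astrocyte genes passed, with Aldoc at -0.37 and Gja1 at -0.44 (adjusted p = 0.527 and 0.772). In the choroid plexus list all 10 differences were negative and 3 passed (4 on the 4 low-Xist arrays), led by Ttr (-1.31, adjusted p = 0.000491), and the mean level of that list was 9.05 to 9.21 on wildtype and 8.22 to 8.72 on null arrays. None of the 10 members was in the authors' deposited table of genes. That table held only 52 of the 35557 probe sets, so the absence of 10 genes from it says little about them.

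Tnc, Nes and Cd24a varied most over the 6 arrays, with SDs of 0.96, 0.69 and 0.69. The genes above the median level whose pattern was most like theirs (1738 candidates with an SD of at least 0.3) were found by Pearson's r over the 6 arrays, as a description. For Tnc these were Kit, a receptor tyrosine kinase (r = 0.994), the linker histone gene H1f5 (0.992), Shtn1, an axon outgrowth gene (0.992), and the cytokinesis kinesin Kif23 (0.990). For Nes they were the axonal adhesion gene Cntn2 (0.980), Tacc3 (0.977) and Plk1 (0.975), which act at the mitotic spindle, and Nrp1, a semaphorin receptor (0.969). For Cd24a they were Spast, which encodes a microtubule-severing enzyme (0.999), Rimklb (0.999), Pafah1b3 (0.998) and Phf6 (0.993). With 6 arrays that share the same days, many genes that fall with age reach such values.

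Among the members themselves, the highest correlations over the 6 arrays were those of Tnc with Cd24a (r = 0.969), Nes with Sox2 (0.956) and Nes with Tnc (0.948). Fabp7 was closest to Pax6 (0.802) and Ptprz1 (0.794), and Slc1a3 to Fabp7 (0.719). Hopx was negatively related to Cd24a (-0.696), Tnc (-0.624) and Nes (-0.578). These values carry the shared ages and the shared arrays and are given without a test.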

How the data were processed

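The authors deposited log2 levels of 35557 probe sets on 6 Affymetrix arrays. The submitters' processing notes name RMA, and its software and version are not given in the sources used here; per the labels' protocols, laser-captured tissue was extracted with Trizol and biotin-labelled. The authors' second deposited table held linear intensity for 52 probe sets, which matched the antilog of the log2 table to a relative 3.4e-06. Array medians lay between 7.72 and 7.81, and no further normalization was applied in the main fits. Close medians do not show that bright levels match. A further quantile normalization moved the day 14 minus day 1 difference of Fabp7 from -0.41 to -0.16 and that of Slc1a3 from 0.08 to 0.26. Of the probe sets 21789 named 1 gene, 1621 several and 12147 none, and for each of 19938 genes the probe set with the highest mean was kept, with no filter on dim genes. RefSeq GRCm38.p6 held 21698 of the entries and changed 0 symbols.

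One limma 3.58.1 model (R 4.3.3) with terms for genotype and for age (3 levels) gave the genotype and age comparisons (2 residual and 7.51 prior degrees of freedom). A second model with genotype, day and their product gave the slope comparison (7.4 prior degrees of freedom). P-values are 2-sided and adjusted over all genes, with a threshold of 0.05. The code was tested on simulated data. Tables and the motif search used pandas 2.3.3 and numpy 2.4.6 under Python 3.11.15, and plots matplotlib 3.10.9. The 10 members, the other lists and the tests were chosen with earlier results of these data known. In each comparison all members were named, with up to 4 genes of each other list by the largest passing change, filled by the smallest p, and 4 genes most like each of the 3 most variable members. Alternatives changed normalization, the filter on dim genes, the probe set rule, the eBayes prior, the age or genotype term, Xist as a covariate, and the arrays included.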

Additional observations from a re-analysis of the deposited data

How the results depend on the processing

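No member was called between the genotypes under the 18 alternatives, except Fabp7 without either day 14 array. For that comparison 134 genes were called as reported. With the lowest tertile left out the count was 61 of 13292 genes, and with the genes below the median left out 16 of 9969. With each probe set on its own 242 of 21789 probe sets were called, which is not a count of genes. Gene counts were 45 with age left out and 66 without the 2 high-Xist arrays. They ran from 135 to 186 when single arrays were left out, and members called from 0 to 1. For day 14 against day 1, Tnc and Cd24a were called under all 17 alternatives and Nes under 16. Members called ran from 3 to 5 and genes from 1344 to 3255 without single arrays (2751 as reported). For day 7 against day 1, genes called were 12 as reported, 55 after centring, 77 without genes below the median, 0 with genotype left out and 0 to 456 without single arrays, with 0 to 1 members. Without the 2 high-Xist arrays, linear age makes all 3 age comparisons 1 test, with 1863 genes and 3 members (Tnc, Hopx and Cd24a). For day 14 against day 7, members called were 2 as reported, 4 after centring and 2 to 5 without single arrays. Genes called were 840 of 19938 as reported, 904 of 19938 after centring and 291 to 1587 without single arrays. The filter on genes below the median drops Hopx, and with it 5 of 9 members and 944 of 9969 genes were called. Slope calls were 0 to 9 genes and 0 members without single arrays. The slope test without the 2 high-Xist arrays was not run, since 4 arrays leave no residual degree of freedom. Where leaving out an array leaves 1 array at an age, that array is assumed to vary like the others. For the other changes of count the cause was not tested. The age term of the model already pairs the wildtype and null arrays of each age. No other pairing was possible because the labels number no replicates.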
